A study of Homo sapiens with 15 samples.

Results

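Polyamine metabolism was described in C4-2B cells through 10 genes, chosen by name as the enzymes and regulators of the pathway, out of 58302 genes listed. They comprise 4 genes of synthesis (ODC1, AMD1, SRM and SMS), 3 of breakdown (SAT1, PAOX and SMOX), the antizymes OAZ1 and OAZ2, and the antizyme inhibitor AZIN1. RNA-seq libraries are labelled for 15 samples in 5 groups, and the values below come from the 3 replicate libraries of the C4-2B group; the neuroendocrine-like DKD and ER groups, each labelled as control or Pax5 knockdown, were not analysed here. C4-2B is an established prostate adenocarcinoma line derived from LNCaP. Its libraries are labelled wild type, carry no treatment in the labels and came from cells grown in RPMI with serum, so they describe 1 cell line in 1 state, without the stroma or secretory epithelium of a prostate. No comparison between cell lines or after Pax5 knockdown was made.

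Putrescine, spermidine and spermine are small cations that bind nucleic acids and are needed for cell growth. Ornithine is decarboxylated to putrescine, and aminopropyl groups taken from decarboxylated S-adenosylmethionine then extend putrescine to spermidine and spermidine to spermine. Acetylation and oxidation run the pathway backwards, and an antizyme loop lowers ornithine decarboxylase when polyamines are plentiful. The prostate is known for secreting spermine into seminal fluid.

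The 3 libraries held 44992971, 49569026 and 46232076 counts in genes. Levels are given in TPM, the count of a gene per base of its exons, scaled so that all genes of a library sum to the same total. RN7SL2, a short abundant RNA, made up 19.6% ± 0.726 of that total (SD, n = 3), which lowers the TPM of the polyamine genes alike and leaves their ratios as they are. The 4 luminal markers used to check the label were all present: KLK3 was at 1988 ± 21.1 TPM, KLK2 at 320.8 ± 1.503, TMPRSS2 at 201 ± 1.52 and KRT8 at 197 ± 1.52 (SD, n = 3 each). With the canonical transcript lengths described with AMD1 below, KLK3 was at 4239 ± 48.8 TPM, KLK2 at 488 ± 2.04, TMPRSS2 at 239 ± 1.65 and KRT8 at 512 ± 3.50 (SD, n = 3 each). In bulk RNA a gene at a lower level in fewer cells and in all cells cannot be told apart.

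Transcripts of every member were counted. All 10 had a TPM of 1 or more in each library, a level reached by 32.8% of all genes listed and by 61.2% of the 19708 protein-coding genes. The means ran from 4.93 TPM for SMOX to 570.4 TPM for OAZ1, with a median of 177 TPM, beside a median of 22.2 TPM over the 12059 protein-coding genes at this level. Together the 10 genes took 2424 ± 9.92 TPM and 0.300% ± 0.00176 of the counts (SD, n = 3 each). Genes of synthesis held 66.8% ± 0.166 of this summed TPM, the antizymes 25.1% ± 0.176, breakdown genes 4.32% ± 0.0663 and AZIN1 3.70% ± 0.00685 (SD, n = 3 each).

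**Figure D1:**
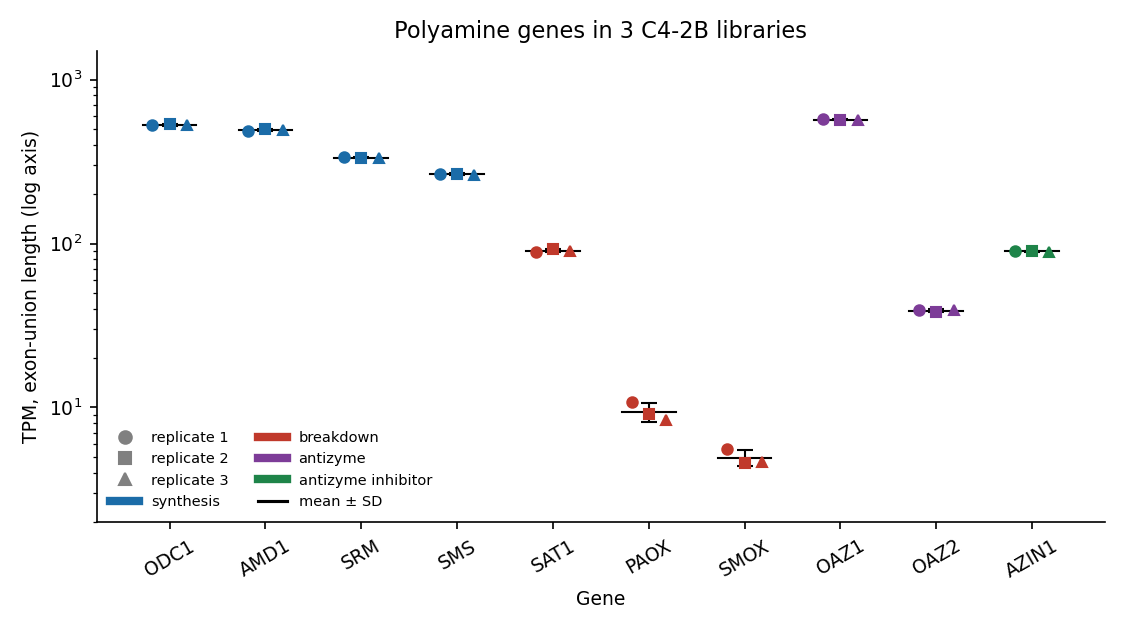
TPM of the 10 polyamine genes (log axis) in each of the 3 C4-2B libraries, with marker shape for the replicate, colour for the role, and lines for the mean ± SD. The 4 genes of synthesis and OAZ1 lie between 260.1 and 575 TPM in every library, while PAOX and SMOX lie between 4.58 and 10.8 TPM.

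ODC1 encodes ornithine decarboxylase, which makes putrescine and is the first regulated step of synthesis. ODC1 (ENSG00000115758, GRCh38, chromosome 2, 10439968 to 10448504, minus strand) was at 529, 534 and 525 TPM in replicates 1, 2 and 3, from 71019 counts. It ranked 130 of the 12059 protein-coding genes at a TPM of at least 1. The 3 values lay close together, and every one was above those of AMD1, SRM and SMS.

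AMD1 encodes S-adenosylmethionine decarboxylase, which supplies the aminopropyl donor. AMD1 (ENSG00000123505, chromosome 6, 110874770 to 110895713, plus strand) was at 488, 497 and 496 TPM, from 156763 counts, the most counts of any member. Its TPM was 0.932 ± 0.0118 of that of ODC1 (ratio per library, SD, n = 3). This order depended on the gene length used. The deposited length of AMD1, the union of exons from all its annotated transcripts, is 7027 bases, while its canonical transcript in GENCODE 44 has 3423 bases. With canonical lengths for all genes (an alternative added once the counts had been seen), AMD1 was at 682 ± 7.86 TPM and ODC1 at 427 ± 3.65 TPM, and the ratio was 1.597 ± 0.0202 (SD, n = 3 each). Counts from bases outside the canonical transcripts could not be removed there. Of the 50-base windows in the exons of AMD1, 8.996% also occur elsewhere in GRCh38, beside 0.129% for ODC1. Reads aligned to several places were not counted, and a correction could turn the order on the TPM scale.

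SRM and SMS encode the aminopropyltransferases, spermidine synthase and spermine synthase. SRM (ENSG00000116649, chromosome 1, 11054584 to 11060024, minus strand) was at 336, 330.1 and 334 TPM. SMS (ENSG00000102172, chromosome X, 21940573 to 21994835, plus strand) was at 265, 267 and 260.1 TPM. Every SMS value was below every SRM value, and the ratio of SMS to SRM was 0.793 ± 0.0151 on the TPM scale and 0.668 ± 0.0127 with canonical lengths (SD, n = 3 each). Of the 50-base windows in the exons of SMS, 34.0% also occur elsewhere in GRCh38, and none of those of SRM do. Reads aligned to several places were not counted, so the level of SMS is a lower limit in that respect only. With canonical lengths SMS was at 225 ± 2.99 TPM (SD, n = 3). No setting run here corrects for these windows, and a correction could turn the order of SMS and SRM.

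SAT1 encodes spermidine/spermine N1-acetyltransferase, the regulated step of breakdown. SAT1 (ENSG00000130066, chromosome X, 23783173 to 23786226, plus strand) was at 88.9, 92.9 and 89.7 TPM, and ranked 1400 of the 12059 genes. Its range overlapped that of AZIN1, so the order of these genes is not settled on this scale. With canonical lengths SAT1 was at 145 ± 3.44 TPM (SD, n = 3), above AZIN1 in every library. With lengths that leave out exon bases shared with other genes, SAT1 was at 86.3 ± 2.01 TPM and AZIN1 at 89.9 ± 0.542 TPM (SD, n = 3 each). The ranges were apart there too, in the other direction, so the order depended on the length used.

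The oxidases stood well below the rest. PAOX encodes the peroxisomal polyamine oxidase, which acts on acetylated polyamines, and SMOX encodes spermine oxidase, which acts on spermine directly. PAOX (ENSG00000148832, chromosome 10, 133379234 to 133391694, plus strand) had 356, 331 and 280 counts, or 10.8, 9.13 and 8.32 TPM. SMOX (ENSG00000088826, chromosome 20, 4120980 to 4187747, plus strand) had 238, 215 and 201 counts, or 5.57, 4.58 and 4.62 TPM. Every PAOX value was above every SMOX value, and both genes were highest in replicate 1. They ranked 8830 and 10161 of the 12059 genes, below the median level of 22.2 TPM.

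TPM of the synthesis genes summed to 15.5 ± 0.245 times that of the breakdown genes (SD, n = 3). With canonical lengths the ratio was 10.6 ± 0.160 (SD, n = 3). SAT1 alone was at 6.38 ± 0.820 times the sum of both oxidases, and at 11.8 ± 1.52 times with canonical lengths (SD, n = 3 each). On the TPM scale the SD of this ratio came mainly from replicate 1, at 5.44 against 6.77 and 6.93 in replicates 2 and 3. With canonical lengths the ratio rests on the upper limit for SAT1 given above.

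OAZ1 and OAZ2 encode antizymes, which bind ornithine decarboxylase subunits and carry them to the proteasome. Their mRNAs are read in full only when ribosomes shift by 1 base at a stop codon, a step that polyamines favour, so an mRNA level is not a level of the protein. The shift sites are shown because they are the feature these genes share and because counts cannot see their use. In each line the capitals mark the codon before the shift and the stop codon it passes, read 5′ to 3′ from GRCh38 at the base that the GENCODE 44 canonical transcript skips.
OAZ1: tcggtggtgcTCCTGAtgcccctcacccac
OAZ2: tctgtggtgcTCCTGAtgcccctcacccac
OAZ3: cctccagtgcTCCTGAgtccctagtaggcc
The OAZ1 window lies on chromosome 19 at 2271430 to 2271459 (plus strand), that of OAZ2 on chromosome 15 at 64691499 to 64691528 (minus strand), and that of OAZ3, the third antizyme gene, on chromosome 1 at 151767211 to 151767240 (plus strand). OAZ1 and OAZ2 were identical at 29 of 30 bases, and OAZ1 and OAZ3 at 15 of 30. A skipped base inside the coding exons is annotated for 8 of 19701 canonical coding transcripts, these 3 among them. In OAZ1 the shift follows codon 68 and leaves 160 codons in the new frame, and in OAZ2 it follows codon 32 and leaves 157.

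OAZ1 (ENSG00000104904, chromosome 19, 2269509 to 2273490, plus strand) was at 575, 569 and 567 TPM, above every other member in every library. It ranked 115 of the 12059 genes. OAZ2 (ENSG00000180304, chromosome 15, 64687573 to 64703281, minus strand) was at 39.4, 38.2 and 39.2 TPM. The ratio of OAZ1 to OAZ2 was 14.7 ± 0.218, and 11.1 ± 0.164 with canonical lengths (SD, n = 3 each).

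Both antizyme genes are the members whose deposited length departs most from that of 1 transcript. The OAZ1 union has 3436 bases, 2.99 times the canonical 1148, and merges into 2 blocks of exon sequence. The OAZ2 union has 7671 bases, 3.97 times the canonical 1934. Over all protein-coding genes the median of this ratio was 1.27. Of 11 OAZ1 transcripts in GENCODE 44, 7 are retained-intron transcripts. With canonical lengths OAZ1 was at 1149 ± 6.76 TPM and OAZ2 at 104 ± 1.70 TPM (SD, n = 3 each). Counts from bases outside the canonical transcript could not be removed, so these values are upper limits in that respect.

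AZIN1 encodes a relative of ornithine decarboxylase without enzyme activity, which binds antizymes and so releases the enzyme. AZIN1 (ENSG00000155096, chromosome 8, 102826357 to 102893864, minus strand) was at 89.7, 90.1 and 89.0 TPM. Its ratio to ODC1 was 0.169 ± 0.000594, and 0.216 ± 0.000759 with canonical lengths (SD, n = 3 each). On the TPM scale every AZIN1 value was above every OAZ2 value, while with canonical lengths AZIN1, at 92.4 ± 0.509 TPM, was below OAZ2 in every library.

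Antizyme transcripts outnumbered those of their target. The summed TPM of OAZ1 and OAZ2 was 1.16, 1.14 and 1.16 times that of ODC1 in replicates 1, 2 and 3, with a mean of 1.15 ± 0.0129 (SD, n = 3). With canonical lengths the mean was 2.93 ± 0.0335 (SD, n = 3). The direction was the same in each library under both lengths, and the size moved by more than the spread between libraries. Canonical lengths also changed the shares of the summed TPM, to 52.7% ± 0.206 for synthesis and 39.5% ± 0.256 for the antizymes (SD, n = 3 each).

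**Figure D2:**
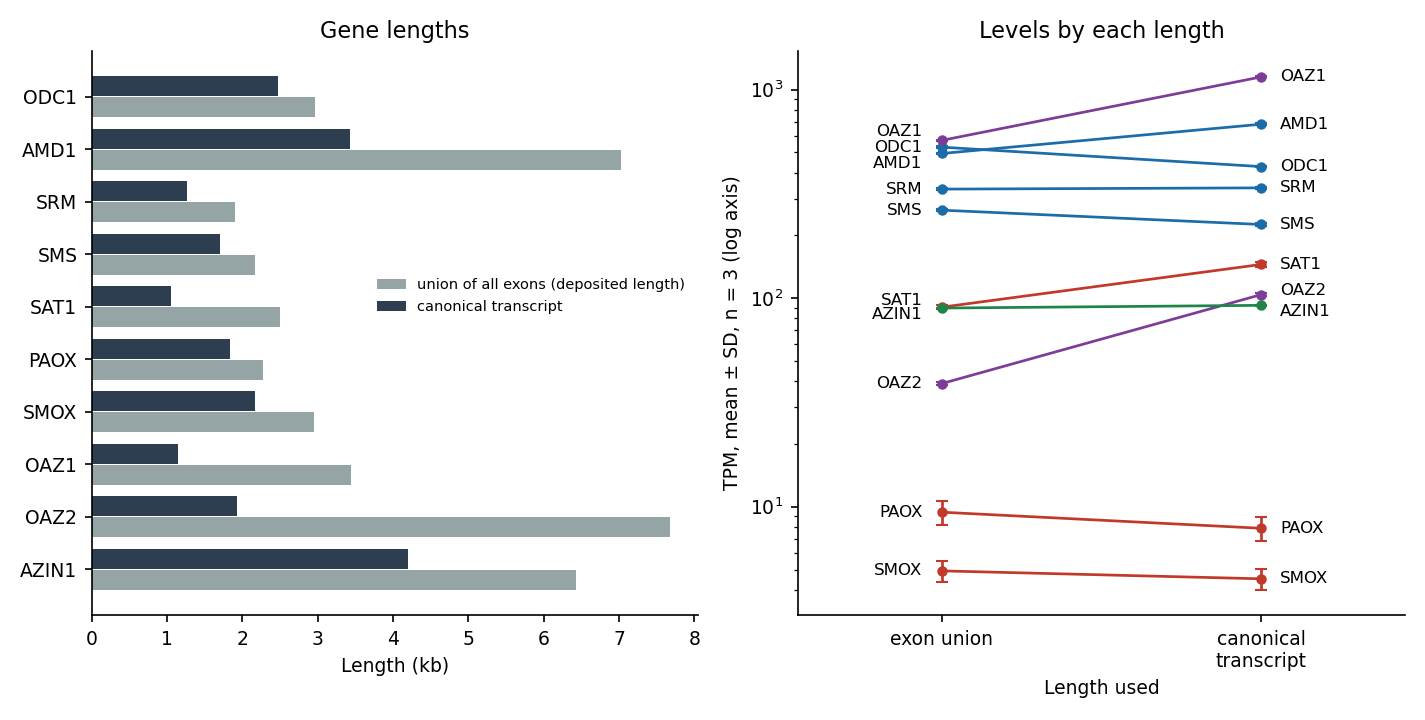
Left, length in kb of the union of exons used in the deposited tables and of the canonical transcript for each gene. Right, mean TPM ± SD over 3 libraries (log axis) computed with each length, coloured by role as synthesis (blue), breakdown (red), antizyme (purple) and antizyme inhibitor (green); AMD1 passed ODC1, and OAZ2 passed AZIN1, when canonical lengths were used.

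In the order by mean TPM, 8 of the 9 neighbouring pairs had ranges that did not overlap over the 3 libraries, and SAT1 and AZIN1 were the pair that did. With canonical lengths all 9 neighbouring pairs were apart. These are levels of different genes in the same libraries, and no p-value was computed for them. Separation here covers the spread between libraries and not the reads left uncounted. It therefore does not settle the order of SMS and SRM, nor that of AMD1 and ODC1.

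Exon bases of 4 members also lie under exons of other genes. The share was 7.22% for OAZ2, 6.94% for PAOX, 6.87% for OAZ1 and 5.04% for AZIN1. Reads there were assigned to neither gene, so these levels are lower limits in that respect only. The partners were JSRP1 and ENSG00000273734 for OAZ1, ENSG00000265967 for OAZ2, ENSG00000254536 for PAOX and MAILR for AZIN1, and they held from 0 counts (ENSG00000273734 and ENSG00000265967) to 102 counts (MAILR) over the 3 libraries. Windows of 50 bases found elsewhere in the genome made up 8.996% of those of AMD1, 5.52% of OAZ2, 4.28% of OAZ1 and 2.22% of AZIN1, 0.721% of SMOX and 0.129% of ODC1, with none for SAT1 and PAOX.

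To see whether any level varied between libraries beyond counting noise, the 3 counts of each gene were compared by a chi-square test of fit to the library sizes, divided by 2 because the mates of a read pair were counted separately. None of the 10 members passed a Benjamini-Hochberg adjusted p of 0.05 over 22229 genes, of which 0.792% passed. An unadjusted p under 0.05 was held by 0 of the 10, beside 2503 of the 22229 genes. Among the 11628 genes with at least as many counts as SMOX, it was held by 1743. PAOX came nearest, with an unadjusted chi-square p of 0.0501 and an adjusted p of 0.444. Without the division, 1 member passed, PAOX with an adjusted chi-square p of 0.0223, in a test that 17.3% of all genes passed. That call was lost without replicate 1, at an adjusted p of 0.507 in the same chi-square test, and without replicate 3, at 0.159. Without replicate 3 the member called was AMD1, at an adjusted p of 0.0211. A p above the threshold does not show that the libraries were equal. The test compares libraries, and nothing in the labels says that they came from separate cultures. The paper's methods state that RNA-seq of this line was done in triplicate, and that experiments in general had 3 independent replicates. They do not say what was repeated for these libraries.

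The coefficient of variation (CV) of scaled counts over the 3 libraries was 1.17% for ODC1, 0.740% for AMD1, 1.11% for SRM, 1.74% for SMS, 1.15% for OAZ1 and 0.989% for AZIN1. It was 1.80% for OAZ2 and 2.30% for SAT1. The oxidases, with the fewest counts, had the widest spread, at 13.8% for PAOX and 11.8% for SMOX. The counting error expected for pairs at these depths is 7.88% for PAOX and 9.58% for SMOX. In 6 members the CV was above the counting error and in 4 (SRM, SAT1, OAZ2 and AZIN1) it was not. The share of all genes above their counting error was not computed, so these counts are not read as a trait of the members. The median CV over the 22229 genes tested was 7.09%, and it was 3.23% over the 11628 genes with at least as many counts as SMOX.

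**Figure D3:**
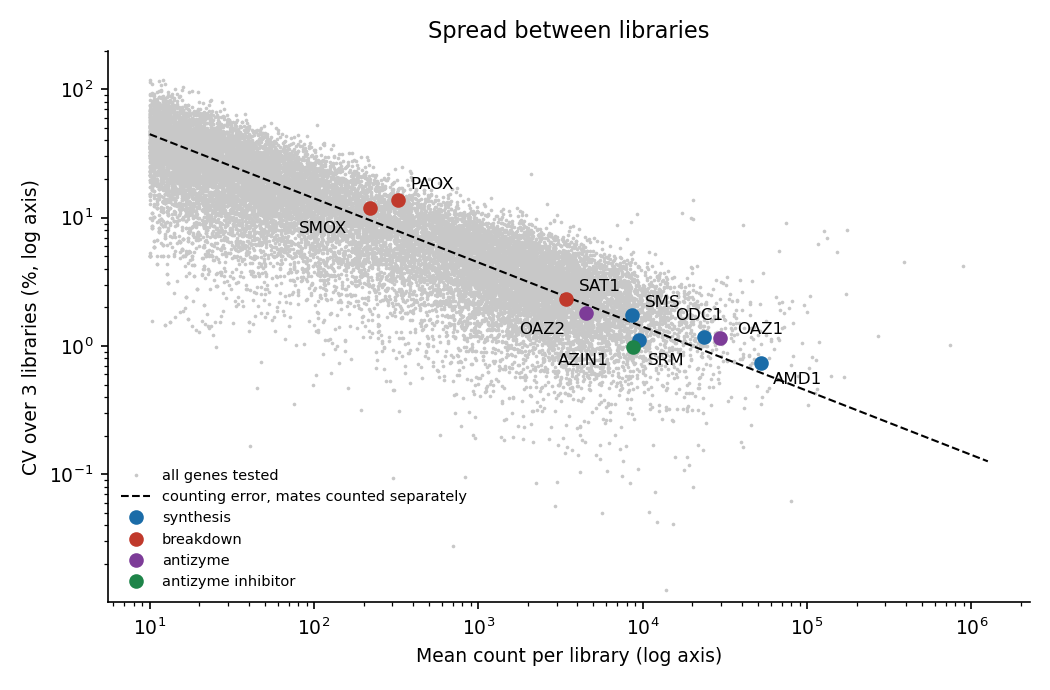
CV over the 3 libraries (percent) against mean count per library, both on log axes, for the 22229 genes tested (grey) and the 10 members (coloured by role), with the counting error for mates counted separately as a dashed line. PAOX, at 13.8%, lies above the line and SRM, OAZ2 and AZIN1 lie below it.

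To place the members in the wider pathway, 40 further genes in 7 lists were examined. A TPM of 1 or more in each library was reached by 30 of the 40, beside 61.2% of protein-coding genes, and 2 had 0 counts. None of the 34 with enough counts passed the chi-square test divided by 2, which 0.792% of all genes tested passed. An unadjusted p under 0.05 was held by 5 of the 34, beside 2503 of the 22229 genes tested. Without the division 8 passed, in a test that 17.3% of all genes passed. Named here are the highest and lowest gene of each list and those with 0 counts; any further gene was picked with its values in view, and is marked so.

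Of 7 genes that supply or use ornithine, 4 reached this level. SLC25A15, the mitochondrial ornithine carrier, was highest at 42.4 ± 2.94 TPM. Its deposited length is 1837 bases and its canonical transcript has 3821, so reads outside the deposited exons were not counted. With canonical lengths it was at 13.7 ± 0.938 TPM, a lower limit for that reason. OAT, the ornithine aminotransferase, was at 38.7 ± 1.14 TPM with canonical lengths, and its order with SLC25A15 is not settled there. ARG2, the mitochondrial arginase, was at 31.8 ± 1.37 TPM, and ARG1, the cytosolic arginase of liver, at 1.95 ± 0.522 TPM (SD, n = 3 each; OAT, ARG2 and ARG1 were chosen after their values were seen). For ARG2, 37.4% of exon bases lie under other genes and its level is a lower limit in that respect only. OTC, the urea cycle enzyme that consumes ornithine, had 0 counts, which allows up to 0.0420 TPM (3 counts over the 3 libraries).

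All 8 genes of methionine activation and methylthioadenosine salvage reached a TPM of 1. MAT2A, the S-adenosylmethionine synthetase of most tissues, was at 165, 164 and 172 TPM, and MAT1A, its liver counterpart, was lowest at 3.27 ± 0.208 TPM (SD, n = 3). MTAP, which recycles the methylthioadenosine left by SRM and SMS and was chosen after its values were seen, was at 12.9 ± 0.546 TPM, and at 21.1 ± 0.877 TPM with canonical lengths (SD, n = 3 each). Every MAT2A value was far above every MAT1A value, and below those of AMD1.

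Hypusine is made with spermidine on a lysine of the translation factor eIF5A. The list holds genes of the modifying enzymes and of eIF5A itself, and all 4 reached a TPM of 1. EIF5A was highest at 358, 348 and 357 TPM, a level between those of AMD1 and SRM, and was at 531 ± 8.28 TPM with canonical lengths (SD, n = 3). Its paralogue EIF5A2 was lowest at 7.82 ± 0.510 TPM (SD, n = 3).

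Of 13 transport genes, 9 reached a TPM of 1. SLC7A1, a carrier of arginine and ornithine, was highest at 239, 243 and 247 TPM with the deposited lengths. With canonical lengths it was at 171 ± 3.06 TPM, below SLC3A2, the heavy chain of several amino acid carriers, at 191 ± 2.52 TPM (SD, n = 3 each). SLC3A2, chosen after its values were seen, was at 104 ± 1.27 TPM with the deposited length (SD, n = 3). Among genes tied to polyamine transport itself, chosen after their values were seen, ATP13A3 was at 62.3 ± 1.56 TPM, SLC22A3 at 49.4 ± 1.07 and ATP13A2 at 31.7 ± 0.950 (TPM, SD, n = 3). ATP13A5 was lowest, with 0 counts, which allows up to 0.0107 TPM.

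Further breakdown genes were fewer, and 2 of 4 reached a TPM of 1. SAT2, a paralogue of SAT1, was highest at 39.9 ± 0.541 TPM (SD, n = 3). SATL1 had 1, 2 and 5 counts, and AOC1, the secreted diamine oxidase (chosen after its values were seen), had 8, 6 and 5 counts. Of the remaining antizyme loop genes, OAZ3 was at 4.46 ± 0.246 TPM and AZIN2 at 1.27 ± 0.135 TPM (SD, n = 3 each). The OAZ3 union is 5.21 times its canonical transcript, with which it was at 15.6 ± 0.856 TPM (SD, n = 3), and 28.97% of its exon bases lie under other genes. Of the transglutaminases, which attach polyamines to proteins, TGM2, the widespread tissue form, was at 1.98 ± 0.0540 TPM, and TGM4, the prostate form, at 0.489 ± 0.0965 TPM (SD, n = 3 each).

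**Figure D4:**
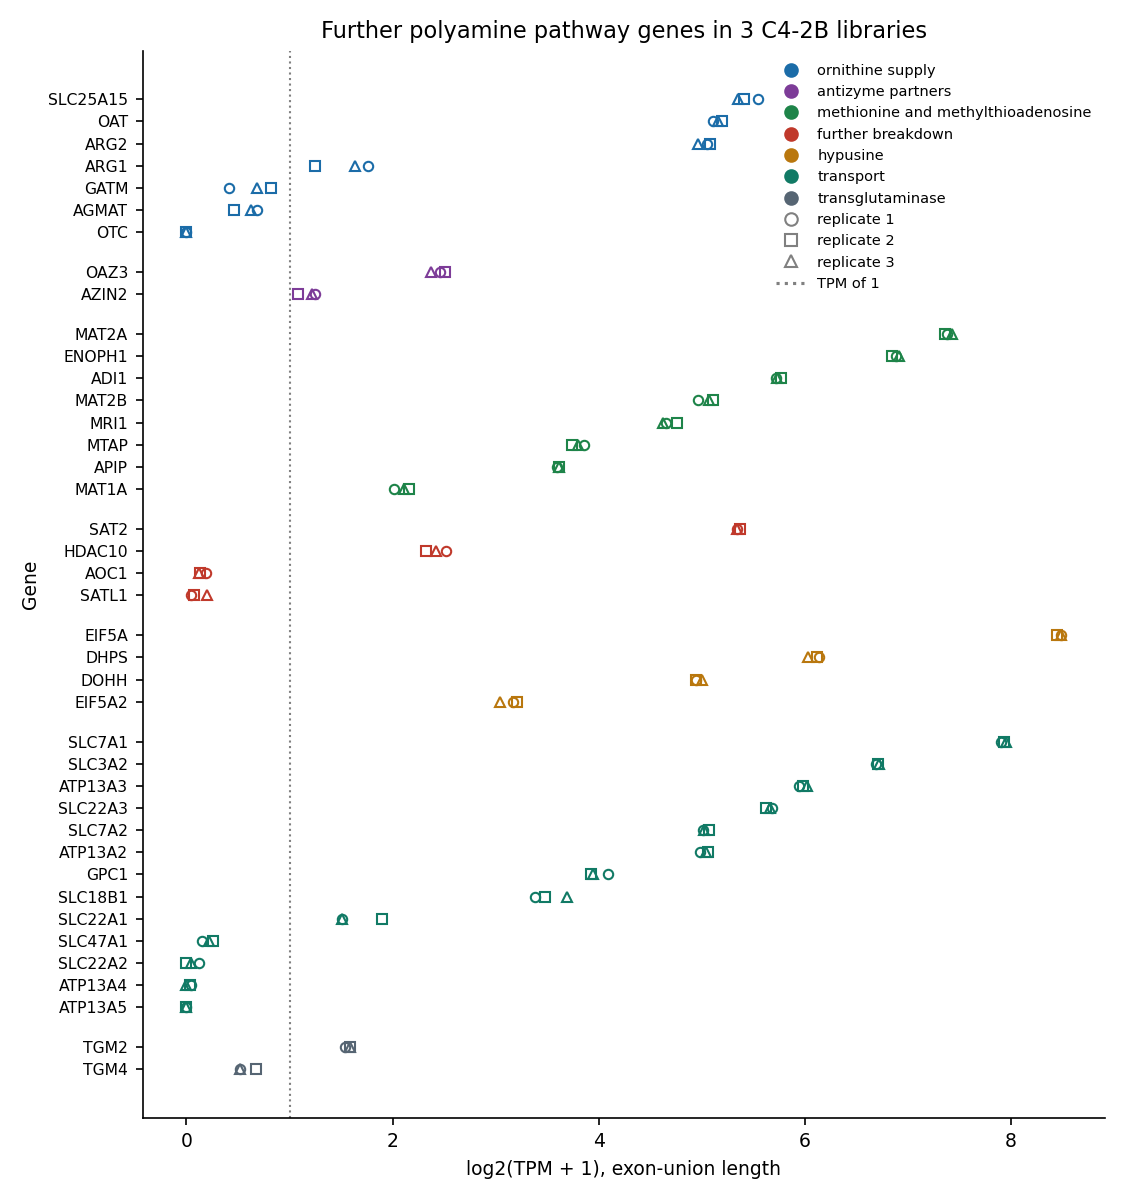
log2(TPM + 1) of 40 further polyamine pathway genes in each of the 3 C4-2B libraries, with marker shape for the replicate, colour for the list and a dotted line at a TPM of 1. EIF5A, SLC7A1 and MAT2A lie furthest to the right, and OTC and ATP13A5 lie at 0.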

How the data were processed

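RNA was depleted of ribosomal RNA and made into directional, paired-end libraries. By its methods and processing notes, the study trimmed reads with Trim Galore and aligned them to GRCh38 (hg38) with STAR 2.7.0f. The authors deposited unnormalised counts for each gene, made by featureCounts (Subread 1.6.3) with Ensembl release 90. Per the file headers, no strand was set, so reads of either strand were counted, mates were counted separately, and reads over several genes or places were not counted. The deposited length, another value of the authors' files, is the union of a gene's exons.

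Total counts were 44992971, 49569026 and 46232076, and counting limits cover counting error only. Symbols were matched for 57532 of 58302 genes. TPM was computed from counts and deposited lengths, and again with GENCODE 44 canonical transcript lengths. Gene types and the annotated shift sites also came from GENCODE 44, which is on GRCh38. Means and SDs are over 3 libraries. Libraries were compared over genes with at least 30 counts, by a chi-square test (2 degrees of freedom) against library sizes scaled by TMM (edgeR 4.0.16, R 4.3.3), divided by 2, with Benjamini-Hochberg adjustment. A count model between groups could not be fitted with 1 group. The test was also run on simulated counts in which both mates were counted. Without change it gave 0 calls among 22313 genes. With 200 genes changed 2-fold in 1 library it called 65.5% of the changed genes among 22290. These counts held no other variation between libraries beyond counting error, so the error rate of the test on the C4-2B libraries was not tested. DESeq2 1.42.0 supplied alternative size factors. Repeats were sought as exact 50-base windows. The members and lists were chosen with earlier results of these data known. Genes named are all members, the highest and lowest of each further list, those with 0 counts, those past the threshold, numbered pseudogenes, and genes overlapping a member. Samples were grouped by title, and no other column was used.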

Additional observations from a re-analysis of the deposited data

How the results depend on the processing

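No paired analysis was possible because only the C4-2B libraries were analysed here, so that no second group carries matching replicate numbers. The summed level of the 10 members, 2424 TPM, was 2997 as CPM, 2359 with lengths outside overlaps, 3507 without the 10 most abundant and the mitochondrial genes in the denominator, 3378 with a protein-coding denominator and 3175 with canonical lengths. As CPM, counts scaled to library size with no length correction, the ratio of antizymes to ODC1 was 1.44, AZIN1 to ODC1 0.366, SMS to SRM 0.902, AMD1 to ODC1 2.21, SMOX to PAOX 0.679 and synthesis to breakdown 23.8. With lengths outside overlaps, antizymes to ODC1 was 1.24, AZIN1 to ODC1 0.178 and SMOX to PAOX 0.488. With canonical lengths, added after the data were examined, these ratios were 2.93, 0.216 and 0.574, and SMS to SRM was 0.668, AMD1 to ODC1 1.597 and synthesis to breakdown 10.6. Each of these settings replaces the length or the denominator itself. AMD1 was above ODC1 as CPM and with canonical lengths, and below it otherwise. The other ratios stayed on the same side of 1 under all alternatives run. None of these alternatives corrects for the windows of SMS and AMD1 found elsewhere in the genome. They therefore say nothing of that limit on SMS to SRM and AMD1 to ODC1.

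All 10 members kept a TPM of at least 1 under every alternative, and 9 reached a TPM of 5. Between 8 and 9 neighbouring pairs were separated. The number of genes differing between libraries was 176, was 118 to 195 under other size factors and count minimums, was 3835 without the division by 2, and ranged from 38 (without replicate 1) to 223 (without replicate 2), with 44 without replicate 3. Of the members, 0 were called except without the division, where 1 was, PAOX; undivided, PAOX was also called without replicate 2 (adjusted p 0.0130 in the chi-square test) and not without replicate 1 or 3, and AMD1 was called without replicate 3. Leaving out 1 replicate moved no member's mean by 1 SD, which it cannot do with 3 values.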

Other observations

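ODC1-DT, a long non-coding RNA gene that runs away from the ODC1 start on chromosome 2 (10448694 to 10451327), had 274, 288 and 264 counts, or 10.4 ± 0.309 TPM (SD, n = 3). It was named after its values were seen. Its TPM lay above that of SMOX in each library, and its range overlapped that of PAOX.

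Processed pseudogenes of the members held few of the counts. Of 10 examined, 6 had any count, and together they had 414 counts over the 3 libraries. ODCP, the ODC1 pseudogene on chromosome 7 (129028889 to 129030527), held 287 of these, as 69, 107 and 111 counts, and was named after its values were seen. SRMP2 had 20, 14 and 29 counts and SRMP3 had 9, 11 and 16. AMD1P3 had 18 counts, OAZ1P1 had 8 and AMD1P2 had 2 over the 3 libraries, while AMD1P1, AMD1P4, SRMP1 and SMSP1 had 0. Reads that fit a pseudogene and its parent equally were not counted for either, so these counts are uncertain, and 0 counts do not show that a pseudogene is silent.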
